A study of Mus musculus with 12 samples.

Results

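The response of bERKO granulosa cells to human chorionic gonadotropin (hCG) was read from 6 of the 12 one-colour Affymetrix mouse arrays of the study. The 6 were all the arrays of that genotype: 3 of cells collected 4 h after hCG and 3 of cells that had received pregnant mare serum gonadotropin (PMSG) alone. bERKO mice lack estrogen receptor beta, the product of Esr2. Cells of the bERKO PMSG group came from bERKO mice 48 h after PMSG, and cells of the bERKO hCG group from bERKO mice given PMSG for 48 h and then hCG for 4 h. The other 6 arrays held wild-type (WT) cells under the same 2 treatments, 3 arrays each, and are used below only where the bERKO response is set against theirs. Every group was thus primed with PMSG, and every mouse was 3 weeks old. The cells were cut from preovulatory follicles by laser microdissection. The sources used here do not name the mutant allele, the strain or the number of mice behind each array. The arrays of a group are called biological replicates, but if they did not come from separate animals the p-values would measure technical spread.

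PMSG acts like follicle-stimulating hormone and brings a cohort of follicles to the preovulatory stage. hCG acts on the luteinizing hormone (LH) receptor and stands in for the LH surge. In granulosa cells the surge raises cyclic AMP, which induces EGF-like growth factors, and these in turn switch on MAP kinase signalling in mural and cumulus cells. Transcription factors induced within hours then drive expansion of the cumulus matrix, follicle rupture and the change of granulosa cells into progesterone-secreting luteal cells. Estrogen receptor beta is the main estrogen receptor of granulosa cells, and mice without it are known to ovulate poorly.

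Levels are given as log2(intensity + 16) after quantile normalization, on which 4 is the floor and a change of 1 stands for a factor of 2 well above that floor. Changes are hCG minus PMSG, and a gene is said to have risen or fallen where limma gave an adjusted p under 0.05 over all 18193 genes. Of these genes, 1283 rose (7.05%) and 2164 fell (11.9%), 3447 in all (18.9%). The risen genes had a median change of 1.9 and the fallen genes one of -1.61, while the median over all genes was -0.19. Rises of at least 4 log2 units were seen for 127 genes and falls of that size for 23. The hCG arrays of bERKO resembled one another more (correlations from 0.954 to 0.971 over genes) than the PMSG arrays did (0.914 to 0.949), and arrays of different treatment correlated at 0.84 to 0.889.

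The balance of risen and fallen genes depended on the scaling of the arrays. Risen genes made up 37.2% of the calls here, 43.0% with the authors' scaling alone (1439 rose, 1906 fell) and 24.3% when every array was centred on its own median (964 rose, 3005 fell). The median change of all genes was -0.05 and -0.41 under those scalings, so small changes have no firm direction and lists are read against -0.19. Counts of risen and fallen members of every list are read against the shares over all genes, 7.05% and 11.9%. Precision is limited by the 3 arrays in each group.

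One array of the comparison stood apart in RNA quality. The ratio of the 3' to the 5' control probe sets of Gapdh, which climbs as RNA degrades, was 23.74 on bERKO PMSG replicate 3 and between 5.06 and 11.19 on the other bERKO arrays. Its median intensity before normalization was 49.1, the lowest of the 12. Without it 1140 genes rose and 1816 fell, of which 963 and 1533 were the same genes as before. All 3447 called genes kept their sign. Leaving out bERKO hCG replicate 3 lowered the number of fallen genes the most, to 1369. The WT arrays included one such array, WT hCG replicate 1 with a ratio of 32.16, which bears on the comparison with WT.

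**Figure D1:**
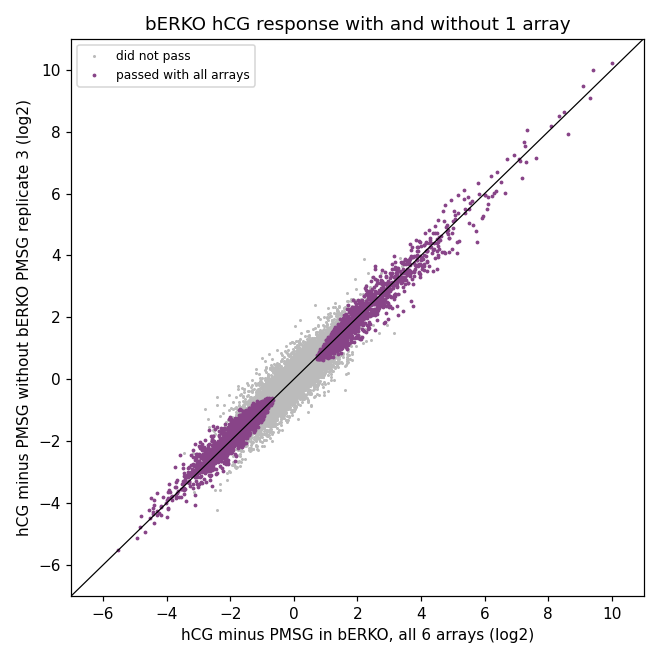
Change from PMSG to hCG in bERKO for 18193 genes (log2 units), with all 6 arrays (x axis) and without bERKO PMSG replicate 3 (y axis); purple points passed with all arrays and the line marks equal values. The purple points lie along the line, and all 3447 keep their sign.

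Some of the genes that mark granulosa cells were high on all 6 arrays. Inha, the alpha subunit of inhibin, measured 14.12, 14.18 and 13.65 after PMSG and 14.25, 14.17 and 14.44 after hCG. Inhba, the beta A subunit, lay between 14.52 and 14.87, follistatin (Fst) between 12.81 and 13.47, and the orphan nuclear receptor Nr5a2 between 13.35 and 13.85. None of these passed the test. Other granulosa markers, Fshr, Amhr2, Gata4 and Foxl2, fell after hCG and are described below with the genes of the preovulatory state. Amh, the hormone of smaller follicles, was near the floor (4.33 to 6.12). Esr2 itself measured 8.19, 8.64 and 8.13 after PMSG and 8.34, 8.13 and 8.53 after hCG, which gave a change of 0.02 (SE 0.37) and no call. It has 1 probe set on the array, of unknown position relative to the mutation, so the signal checks nothing about the genotype.

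The EGF-like ligands, which carry the LH signal onward from mural granulosa cells, were among the largest rises. Epiregulin (Ereg) measured 5.24, 4.15 and 4.09 after PMSG and 13.64, 13.74 and 14.1 after hCG. Betacellulin (Btc) went from 6.66, 6.59 and 5.4 to 13.65, 13.75 and 14.12. Epigen (Epgn) went from 4.81, 4.83 and 6.15 to 11.73, 11.8 and 12.4. For all 3 ligands the highest PMSG array lay more than 5 log2 units under the lowest hCG array. The changes were 9.33 (SE 0.99, adjusted p = 0.000239) for Ereg, 7.62 (SE 1.12, adjusted p = 0.00106) for Btc and 6.71 (SE 0.97, adjusted p = 0.000952) for Epgn. Amphiregulin (Areg), the third classic ligand of the ovulating follicle, has no probe set that names it alone and is not analysed here. The receptors did not share this rise. Egfr had a change of -0.76 (adjusted p = 0.258), and Erbb2 fell by 1.97, a call lost without bERKO PMSG replicate 1 (-1.78), bERKO PMSG replicate 3 (-1.74) or bERKO hCG replicate 1 (-1.40). Of the 12 measured genes of the list, 3 rose and 1 fell, with a median of -0.55 (-0.11 without bERKO PMSG replicate 2).

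Upstream of these ligands, the cyclic AMP pathway showed changes in its degrading enzymes. Of 23 measured genes of cyclic AMP signalling, 4 rose, all of them phosphodiesterases, and 4 fell, with a median of 0.39. Over all genes 7.05% rose and 11.9% fell. Pde10a went from 6.13, 4.78 and 5.15 to 9.56, 8.84 and 9.75, and Pde4b from 7.1, 7.32 and 7.17 to 11.04, 11.17 and 11.4. Pde4d, known to be induced by gonadotropins, rose by 3.47 (SE 0.47, adjusted p = 0.000682). The probe sets of Pde4b and Pde4d disagreed, running from -0.41 to 4.16 and from -0.43 to 3.47. Among the genes that fell were the phosphodiesterase Pde8b, by 2.25 (SE 0.37, adjusted p = 0.00184), and Pkig, an inhibitor of protein kinase A, by 1.70 (SE 0.31, adjusted p = 0.00357). Without bERKO hCG replicate 3, 2 genes of the list fell in place of 4. The receptor for LH (Lhcgr) has no probe set of its own here and is not analysed.

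Negative regulators of MAP kinase signalling rose together. Of 17 measured members, 10 rose and 0 fell, the median change was 1.64, and the count stayed at 10 with any 1 array left out. They included dual-specificity phosphatases, which dephosphorylate MAP kinases, and Sprouty and Spred proteins, which act further upstream. Dusp6, the phosphatase specific to ERK, measured 5.69, 6.18 and 8.67 after PMSG and 11.7, 11.59 and 12.03 after hCG, a change of 4.93 (SE 0.87, adjusted p = 0.0028). Errfi1, an inhibitor of the EGF receptor itself, went from 8.54, 9.7 and 10.75 to 14, 14.14 and 14.2. The PMSG values of both genes were highest on replicate 3, and the groups did not overlap. Other risen members were Dusp1 (4.39), Spred2 (4.10), Dusp5 (2.40) and Spred1 (1.64). The probe sets of Spred2 (-0.45 to 4.10) and Spred1 (-0.78 to 2.18) did not all rise.

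Immediate early transcription factors, which cells induce without new protein synthesis, were still raised 4 h after hCG. Of 27 measured, 14 rose and 0 fell, with a median of 1.8. The zinc finger factor Egr3 measured 4.46, 4.05 and 5.06 after PMSG and 11.59, 11.61 and 12.21 after hCG, the largest change of the list at 7.28 (SE 1.09, adjusted p = 0.00113). Its probe sets ran from 0.84 to 7.28. Its relative Egr1 went from 10.78, 9.05 and 10.88 to 14.01, 13.94 and 14.35. Egr2 rose by 3.91 (SE 0.78, adjusted p = 0.00533). The fourth member, Egr4, lay near the floor on all 6 arrays (4.24 to 4.85) and did not pass.

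Subunits of the AP-1 factor and the NR4A orphan receptors rose as well. Fosl1 went from 4.78, 4.08 and 5.24 to 8.29, 8.33 and 8.58, Fosb from 4.17, 4.2 and 5.12 to 7.01, 7.77 and 8.5, and Jun from 8.24, 8.45 and 8.16 to 11.28, 10.92 and 12.05. Fos did not pass, with 9.52, 7.97 and 8.42 after PMSG and 9.94, 9.72 and 10.52 after hCG (change 1.42, adjusted p = 0.0966), though it passed without WT PMSG replicate 3 (adjusted p = 0.0482). Jun and Fosb had separate groups, as did Fos, whose gap was small. Nr4a1 rose by 3.97 (SE 0.59, adjusted p = 0.00109) and Nr4a3 by 4.35 (SE 0.48, adjusted p = 0.00027). Also up were Ier3, a survival gene (4.58), the pluripotency factor Klf4 (4.19), the small Maf protein Maff (3.77) and Crem, a cyclic AMP responsive factor (3.63). On bERKO hCG replicate 3 Egr3, Jun, Fosb, Nr4a1 and Ier3 were each higher than on the other hCG arrays.

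Because AP-1, EGR, NR4A and cyclic AMP responsive factors rose, their binding motifs were looked up in promoter sequence from RefSeq (GRCm38.p6), in windows of 300 bases from 250 before to 50 after each gene's start. The motifs, searched on both strands, were TGACGTCA (cyclic AMP response element), TGANTCA (AP-1), GCGNGGGCG (EGR), AAAGGTCA (NR4A) and CAAGGTCA (NR5A). The last pair differ in their first letter alone. Windows were found for 14452 of the measured genes, and a gene counted where any of its windows held the motif. AP-1 letters stood in those of 7.54% of all genes, 8.74% of the risen and 5.35% of the fallen genes. EGR letters stood in 10.1%, 12.6% and 10.4%, and the cyclic AMP response element in 2.92%, 3.70% and 2.93%. The NR4A and NR5A motifs were less frequent among risen genes than among all genes. NR4A letters stood in 1.44% of all, 1.34% of risen and 1.18% of fallen genes, and NR5A letters in 1.58%, 1.03% and 1.35%. These shares are descriptions without a test, and a match is not a bound site.

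Of the 4 largest rises and the key ovulatory genes, 17 had a window, and 3 of these (17.6%) held any of the 5 motifs. Over all genes with a window the share was 22.0%, so the share among these genes was no higher than the background. Their 250 bases before the start, read 5′ to 3′ on the strand of the gene, are shown with the matching letters in capitals, since they place the motifs of risen factors beside genes that rose with them. Nts lies on chromosome 10 (chr10:102490419-102490668, minus strand) and holds AP-1 letters that begin at position -207 from the start. Tnfaip6 lies on chromosome 2 (chr2:52037863-52038112, plus strand) with AP-1 letters at position -142. The third is Runx1 on chromosome 16 (chr16:92697330-92697579, minus strand), with EGR letters at position -163 from one of its starts.
Nts: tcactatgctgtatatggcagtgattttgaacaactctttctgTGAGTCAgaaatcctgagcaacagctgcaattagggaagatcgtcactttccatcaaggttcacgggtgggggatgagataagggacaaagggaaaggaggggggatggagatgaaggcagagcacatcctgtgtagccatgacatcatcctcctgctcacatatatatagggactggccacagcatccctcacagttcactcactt
Tnfaip6: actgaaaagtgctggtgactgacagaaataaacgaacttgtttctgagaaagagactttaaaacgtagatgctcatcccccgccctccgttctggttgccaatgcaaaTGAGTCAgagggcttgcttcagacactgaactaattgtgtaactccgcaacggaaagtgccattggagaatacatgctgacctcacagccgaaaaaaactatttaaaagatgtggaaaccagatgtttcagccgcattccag
Runx1: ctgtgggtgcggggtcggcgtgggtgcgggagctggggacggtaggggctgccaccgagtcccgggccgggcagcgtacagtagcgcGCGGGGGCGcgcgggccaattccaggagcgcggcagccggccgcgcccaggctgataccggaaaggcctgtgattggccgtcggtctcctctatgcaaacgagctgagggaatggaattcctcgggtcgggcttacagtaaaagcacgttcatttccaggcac
The windows of Sult1e1 and Ptgs2 hold none of the searched letters, which says nothing about the factors. Ereg was not matched to a window.

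Prostaglandin genes moved both ways. Ptgs2, the inducible synthase without which mice do not ovulate normally, measured 4.34, 4.03 and 6.13 after PMSG and 14.21, 14.18 and 14.32 after hCG, a change of 9.40 (SE 1.07, adjusted p = 0.00032). The receptors Ptger4 and Ptgfr went from 5.81, 4.23 and 7.36 to 10.87, 11.06 and 11.56 and from 5.2, 4.06 and 5.86 to 11.35, 11.53 and 10.81. Slco2a1, which takes prostaglandins up into cells, rose by 3.62 (SE 0.34, adjusted p = 0.000161). Against these, Hpgd, the enzyme that inactivates prostaglandins, fell from 12.46, 12.2 and 12.43 to 8.47, 8.93 and 8.2, a change of -3.83 (SE 0.37, adjusted p = 0.000161). Ptgis, the prostacyclin synthase, fell from 11.56, 11.26 and 11.99 to 8.55, 8.5 and 8.07. Among the synthases, Ptgs2 was thus higher and Ptgis lower after hCG. Ptges, which makes prostaglandin E2 from the product of Ptgs2, measured 10.78, 11.39 and 11.1 after PMSG and 9.77, 10.37 and 8.93 after hCG. Its change of -1.40 (SE 0.44, adjusted p = 0.0448) passed only without bERKO hCG replicate 2 or any 1 of the WT hCG arrays, and missed the threshold without any other array (-1.55 to -1.02). Of 14 measured members, 4 rose and 3 fell, with a median of -0.66 (-0.35 without bERKO PMSG replicate 1, -0.10 without bERKO PMSG replicate 3 and -0.17 without bERKO hCG replicate 3).

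Genes of the cumulus matrix, the hyaluronan mesh that forms around the oocyte, rose with no member falling (8 of 12, median 2.13). Ptx3, the pentraxin that stabilises the matrix, went from 4.34, 4.71 and 5.14 to 13.06, 12.97 and 13.19. Tnfaip6, which links hyaluronan to heavy chains, went from 6.37, 7.31 and 6.88 to 13.86, 13.9 and 14.11. Has2, the hyaluronan synthase, went from 6.54, 6.19 and 4.19 to 10.23, 10.36 and 11.3. The changes were 8.35 (SE 1.13, adjusted p = 0.000706), 7.10 (SE 1.44, adjusted p = 0.00592) and 4.99 (SE 0.75, adjusted p = 0.00115). The proteoglycan versican (Vcan), already at 12.95, 12.64 and 12.73 after PMSG, reached 14.99, 14.96 and 15.15. Has1, another hyaluronan synthase, rose by 2.25 (SE 0.50, adjusted p = 0.00936) to levels of 7.06 to 8.61. Cemip, which takes part in breaking hyaluronan down, measured 4.17, 4.86 and 4.97 after PMSG and 11.52, 11.47 and 8.55 after hCG. On bERKO hCG replicate 3 it lay about 3 log2 units under the other hCG arrays, and markers of stroma and smooth muscle were also lowest there among the hCG arrays (8.02, 7.93 and 7.12). Their part in this result was not tested.

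**Figure D2:**
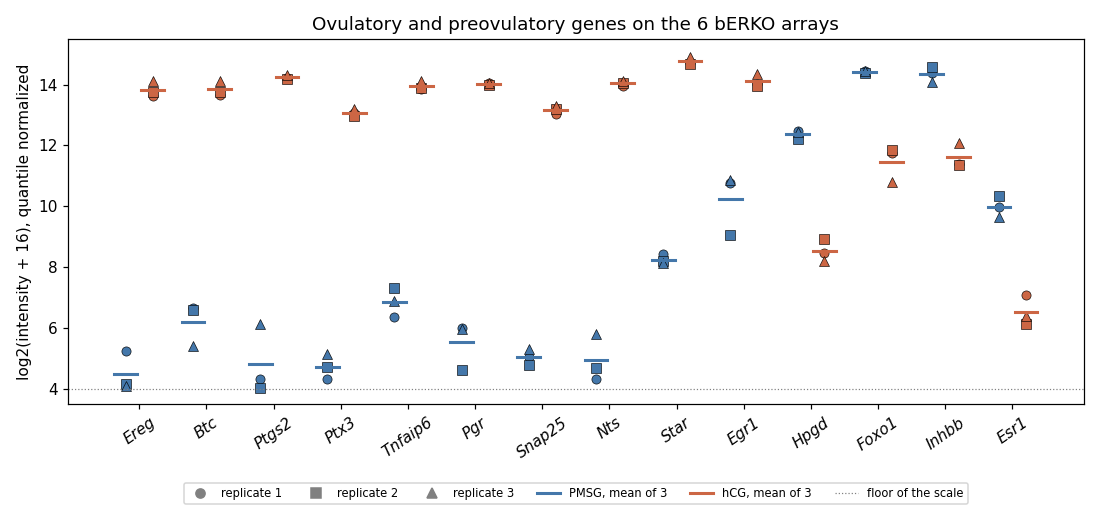
Level on each of the 6 bERKO arrays (points, log2(intensity + 16), quantile normalized) and the mean of 3 (bars) of 14 genes, after PMSG in blue and after hCG in orange. The first 10 genes, from Ereg to Egr1, lie higher on every hCG array than on any PMSG array, and Hpgd, Foxo1, Inhbb and Esr1 lie lower.

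The progesterone receptor, itself required for follicle rupture, rose by 8.5 (Pgr, SE 1.60, adjusted p = 0.00398), from 6, 4.63 and 5.96 to 14.06, 13.98 and 14.04. Several genes known to depend on it rose with it. Snap25, a vesicle fusion protein of nerve endings, went from 5.06, 4.8 and 5.33 to 13.02, 13.19 and 13.29. Adcyap1, which encodes the peptide PACAP, went from 5.11, 4.13 and 6.07 to 12.14, 12.31 and 12.55. The cyclic GMP dependent kinase Prkg2 rose by 6.93 (SE 0.93, adjusted p = 0.000687). Adamts1, the protease that cuts versican, was already high (12.06, 11.91 and 12.23) and reached 13.47, 13.26 and 13.45, a change of 1.33 (SE 0.31, adjusted p = 0.0131). That call was lost with each array centred on its median. Zbtb16, a zinc finger repressor, fell by 1.45 (SE 0.34, adjusted p = 0.0123). Of 14 measured genes of the list, 6 rose and 1 fell, with a median of 0.70.

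Transcripts of neuropeptides and of the secretory apparatus made up one of the lists with the most rises, 9 of 23 with 0 falling (median 1.20, or 0.39 without bERKO PMSG replicate 2). Neurotensin (Nts), whose promoter is shown above, went from 4.33, 4.7 and 5.82 to 13.95, 14.05 and 14.11, a change of 9.09 (SE 1.53, adjusted p = 0.00216). Tac1, the precursor of substance P, went from 7.79, 7.45 and 6.74 to 12.03, 12.09 and 12.54. Npy rose by 4.55 (SE 0.86, adjusted p = 0.00408), and Chgb, a granin of secretory vesicles, by 4.50 (SE 0.83, adjusted p = 0.00347). The opioid precursor Penk was present before hCG (9.47, 8.91 and 10.66) and rose by 2.22 (SE 0.46, adjusted p = 0.00622). The probe sets of Tac1 ran from -1.11 to 4.89.

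Genes of cholesterol import and steroid synthesis included large rises. Star, which carries cholesterol into mitochondria, went from 8.43, 8.2 and 8.13 to 14.72, 14.66 and 14.9, a change of 6.51 (SE 0.84, adjusted p = 0.000547). Cyp11a1, which cuts cholesterol to pregnenolone, measured 8.82, 9.68 and 5.44 after PMSG and 13.66, 13.75 and 13.81 after hCG. Its low PMSG value was that of replicate 3, and the change of 5.76 (SE 1.04, adjusted p = 0.00307) was 4.45 without that array. Its probe sets ran from 0.38 to 5.76, and their mean gave a change of 2.18. Fdx1, its electron donor, rose by 1.90 (SE 0.28, adjusted p = 0.00107) and the lipoprotein receptor Scarb1 by 1.51 (SE 0.25, adjusted p = 0.00201). Hsd3b1, which makes progesterone from pregnenolone, was high throughout (14.32 to 14.89) with a change of 0.09 (adjusted p = 0.835). Enzymes of later steps went both ways. Hsd17b7, which acts in estradiol and cholesterol synthesis, rose by 2.43 (SE 0.42, adjusted p = 0.00233), and Cyp11b1, known from corticosteroid synthesis, by 1.88 (SE 0.38, adjusted p = 0.00558). The estradiol-forming Hsd17b1 went from 13.57, 13.75 and 13.17 to 12.01, 12.03 and 12.74, a call lost without bERKO PMSG replicate 2 (-1.11), bERKO hCG replicate 1 (-1.11) or bERKO hCG replicate 2 (-1.13), and the progesterone metabolizing Akr1c14 from 13.91, 13.73 and 13.81 to 11.92, 11.97 and 11.8. Hsd11b2, which inactivates glucocorticoids, fell by 1.78 (SE 0.32, adjusted p = 0.00333). Cyp17a1, the androgen enzyme of theca cells, measured 8.19, 8.11 and 6.77 after PMSG and 6.86, 7.85 and 8.01 after hCG (change -0.12, adjusted p = 0.901), with a sign that depended on the array left out. The aromatase Cyp19a1 has no probe set of its own here and is not analysed.

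The largest rise of all 18193 genes belonged to the same list. Sult1e1, which sulfates and so inactivates estrogens, measured 4.21, 4.13 and 4.9 after PMSG and 14.31, 14.43 and 14.57 after hCG, a change of 10.02 (SE 1.49, adjusted p = 0.00111). Its size depends on the offset, because the PMSG values lie at the floor: it was 12.1 with an offset of 1 and 8.32 with one of 64. The same holds for Ptgs2 (11.4 and 7.91), Ereg (11.5 and 7.67) and Nts (10.3 and 7.71). All were called under both offsets. Of 15 measured genes of cholesterol import and steroid synthesis, 7 rose and 3 fell (median 0.52, or 0.21 without bERKO PMSG replicate 1 and 0.79 without bERKO PMSG replicate 2).

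Cholesterol synthesis genes moved less. Of 22 measured, 6 rose and 1 fell, with a median of 0.42. Dhcr7, the last enzyme of the pathway, went from 10.31, 10.56 and 9.57 to 12.59, 12.74 and 12.47, and Cyp51, an earlier step, from 11.23, 11.9 and 10.54 to 13.38, 13.39 and 13.3. Abca1, which exports cholesterol, rose by 2.46 (SE 0.35, adjusted p = 0.000875). Both synthesis enzymes were lowest on PMSG replicate 3, as was Sc5d (9.11, 9.67 and 7.45 against 11.73 to 11.82), but their calls held without that array. The count of 6 rises rested on single arrays. It was 4 without bERKO PMSG replicate 1 or 3, any WT PMSG array, or bERKO hCG replicate 1 or 2. Without bERKO PMSG replicate 2 or WT hCG replicate 1 it was 8.

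Among transcription factors tied to luteinization, Runx1 went from 9.87, 7.93 and 10.76 to 13.71, 13.71 and 13.91, a change of 4.26 (SE 0.71, adjusted p = 0.00202). Bcl6, a repressor, went from 8.98, 9.2 and 8.66 to 10.79, 10.83 and 10.69, and Cebpa, which with its relative Cebpb is needed for luteal cells to form, from 10.62, 10.34 and 8.79 to 12.07, 12.05 and 12.57. Cebpb rose by 1.08 (SE 0.28, adjusted p = 0.0189), a call lost without bERKO PMSG replicate 1 (0.92) or bERKO hCG replicate 1 (1.02). That call was also lost with each array centred on its median (0.75) or with the mean of its probe sets. The count for this list rested on single arrays. It was 7 of 14 risen and 0 fallen, with a median of 1.01, but 4 without bERKO PMSG replicate 1, bERKO PMSG replicate 3 or bERKO hCG replicate 2, and 3 without bERKO hCG replicate 1. Runx2 has no probe set of its own here and is not analysed.

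Genes of the preovulatory state fell. Of 21 measured, 9 fell and 1 rose, with a median of -1.31 (-0.76 without bERKO PMSG replicate 3, where again 9 fell). Foxo1, a factor that FSH signalling holds in check and that is lost at luteinization, measured 14.44, 14.37 and 14.46 after PMSG and 11.75, 11.84 and 10.8 after hCG, a change of -2.96 (SE 0.29, adjusted p = 0.000177). Inhbb, the beta B subunit of activin and inhibin, fell from 14.39, 14.57 and 14.08 to 11.38, 11.35 and 12.09. Its partner subunits Inha and Inhba did not pass, as given above. Esr1, estrogen receptor alpha and the estrogen receptor these mice retain, fell from 9.99, 10.34 and 9.65 to 7.08, 6.14 and 6.41, a change of -3.45 (SE 0.32, adjusted p = 0.000155). Amhr2, the receptor of anti-Mullerian hormone, fell by 1.99 (SE 0.42, adjusted p = 0.00755). Gata4 and Foxl2, which maintain granulosa identity, fell by 1.57 (adjusted p = 0.01) and 1.56 (adjusted p = 0.0133), and Foxl2 missed the threshold with the mean of its probe sets (-0.86, adjusted p = 0.0573). The 1 member with a rise was the related factor Gata6 (1.49). That call was lost without bERKO PMSG replicate 3 (0.84, adjusted p = 0.105), any WT PMSG array, WT hCG replicate 2 or any bERKO hCG array (1.44 to 1.55).

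The call of Fshr, the FSH receptor, also rested on single arrays. It measured 11.19, 11.64 and 9.57 after PMSG and 8.92, 8.96 and 9 after hCG, a change of -1.84 (SE 0.50, adjusted p = 0.025). The call was lost without bERKO PMSG replicate 1 (-1.64), bERKO PMSG replicate 2 (-1.42), or bERKO hCG replicate 1 (-1.82), replicate 2 (-1.84) or replicate 3 (-1.85), at adjusted p from 0.0643 to 0.0826. The PMSG values spread over about 2 log2 units while the hCG values did not.

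The natriuretic peptide system, which holds the oocyte in meiotic arrest until the LH surge, showed changes in its ligand and in 2 of its receptors. Nppc, C-type natriuretic peptide, fell from 11.72, 12.02 and 10.81 to 9.81, 8.55 and 9.29, a change of -2.30 (SE 0.56, adjusted p = 0.0143) that missed the threshold without bERKO hCG replicate 2 (-1.97). Its receptor Npr2 had a change of -0.28 (adjusted p = 0.671). The clearance receptor Npr3, which removes natriuretic peptides, went from 5.4, 5.02 and 4.44 to 11.15, 10.86 and 11.97, a change of 6.37 (SE 0.70, adjusted p = 0.000269). Npr1, the receptor of the atrial peptide, went from 4.32, 5.45 and 4.29 to 8.29, 8.34 and 8.97. Gucy1a1, a subunit of the nitric oxide receptor, fell by 1.51 (SE 0.34, adjusted p = 0.0108). Of 13 measured genes, 2 rose and 2 fell, counts not far from the shares over all genes (7.05% and 11.9%). The median was -0.31 (-0.48 without bERKO PMSG replicate 1 and -0.49 without replicate 2). Without bERKO PMSG replicate 3, 4 rose and the median was 0.13, and 1 fell without bERKO hCG replicate 2.

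**Figure D3:**
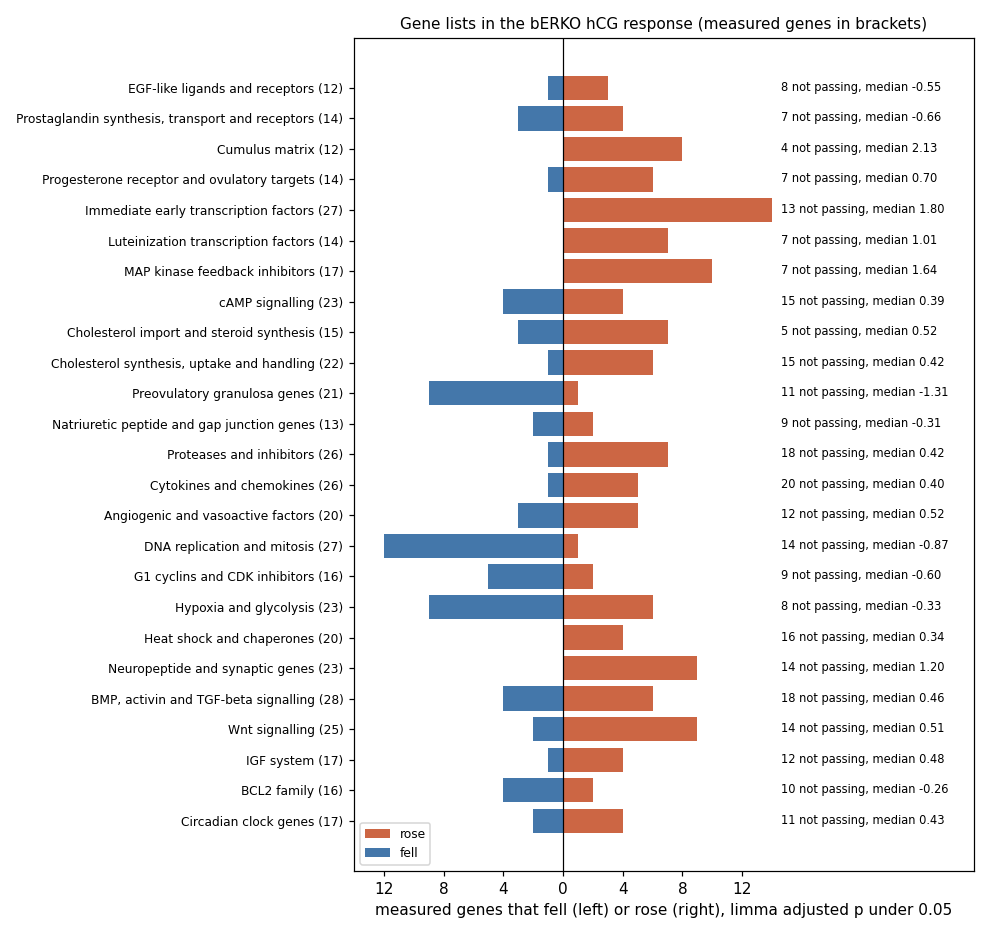
Number of measured genes of each of 25 lists that rose (right) or fell (left) from PMSG to hCG in bERKO, by limma at an adjusted p under 0.05, with the number that did not pass and the median change at the right. Immediate early factors (14 rose), MAP kinase feedback inhibitors (10) and neuropeptide genes (9) have rises and no fall; preovulatory genes (9 fell) and replication and mitosis genes (12 fell) have mainly falls.

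Granulosa cells are known to leave the cell cycle when they luteinize. Of 27 genes of DNA replication and mitosis, 12 fell and 1 rose, with a median of -0.87. With any 1 array left out 8 to 14 fell. The count was 8 without bERKO PMSG replicate 2 or bERKO hCG replicate 1, and 10 without bERKO PMSG replicate 3. Tk1, thymidine kinase, fell from 9.01, 8.41 and 9.11 to 6.49, 6.21 and 6.04, a change of -2.60 (SE 0.46, adjusted p = 0.00275). The mitotic cyclin Ccnb2 fell from 11.43, 11.86 and 11.23 to 9.09, 9.68 and 9.75, and the checkpoint kinase Bub1b from 10.32, 10.73 and 9.94 to 7.93, 8.67 and 8.8. The replication helicase subunits Mcm6 and Mcm7 fell by 1.66 and 1.27, with probe sets of Mcm6 from -2.12 to 0.29. Pcna, the sliding clamp of replication and repair, was the exception: it rose from 12.53, 12.81 and 12.53 to 13.56, 13.53 and 13.83, a call lost with each array centred on its median. Of the 16 G1 cyclins and inhibitors, 2 rose and 5 fell. Cdkn1a, the inhibitor p21, went from 9.49, 9.63 and 9.35 to 10.98, 11.14 and 11.27 (change 1.64, SE 0.26, adjusted p = 0.00157), while Cdkn2c, the inhibitor p18, fell by 1.87 (SE 0.28, adjusted p = 0.00112). The 5 falls were 1 without bERKO PMSG replicate 2, 3 without bERKO PMSG replicate 1 and 2 without bERKO hCG replicate 2 or 3.

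Secreted Wnt inhibitors and ligands rose. Of 25 Wnt pathway genes, 9 rose and 2 fell (median 0.51), beside 7.05% and 11.9% of all genes. With any 1 array left out 6 to 8 rose, the lowest count being that without bERKO PMSG replicate 3 or bERKO hCG replicate 1. The falls were 0 without bERKO PMSG replicate 1 or 3 or without any 1 of the bERKO hCG arrays. Sfrp4, a secreted Wnt antagonist known from luteal cells, went from 6.41, 5.99 and 4.32 to 14.34, 14.31 and 13.99, a change of 8.64 (SE 1.23, adjusted p = 0.000893). Its relative Sfrp2 went from 5.86, 7.23 and 7.03 to 11.54, 11.38 and 11.62. Wnt10b went from the floor (4.13, 4.24 and 4.12) to 7.83, 7.54 and 6.92. The ligand Wnt4, needed for ovary development, rose by 2.97 (SE 0.56, adjusted p = 0.00396) and the receptor Fzd1 by 2.61 (SE 0.47, adjusted p = 0.00294).

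BMP and TGF-beta genes moved both ways. The targets Id2 and Id4 went from 8.63, 8.08 and 8.18 to 11.91, 12.06 and 11.55 and from 4.68, 6.26 and 6.74 to 9.3, 9.7 and 10.29. The receptor Bmpr1b, through which oocyte BMP15 acts, fell from 12.51, 12.53 and 12.36 to 9.71, 10.35 and 10.42, a change of -2.30 (SE 0.32, adjusted p = 0.000843). The co-receptor Tgfbr3 fell by 1.62 (SE 0.28, adjusted p = 0.00231) and the ligand Tgfb3 by 1.86 (SE 0.31, adjusted p = 0.00203). Within each role some members had the opposite direction. The ligand Tgfb2 (2.34) and the receptor Tgfbr2 (2.15) rose, although another probe set of each did not (lowest change -0.53 and -0.20). The ligand Bmp6 had a change of 1.25, a call lost without bERKO PMSG replicate 2 (1.10) or bERKO hCG replicate 1 (1.29) or 2 (1.07). That of the ligand Bmp2 (1.80) was lost without any of 8 arrays (1.23 without bERKO PMSG replicate 2, 1.61 to 1.92 without any other bERKO array but PMSG replicate 1, 1.81 or 1.82 without WT PMSG replicate 3 or WT hCG replicate 2 or 3). The target Id1 had a change of -1.09, lost without bERKO PMSG replicate 1 (-0.97) or 2 (-0.99) or bERKO hCG replicate 3 (-0.87). Of 28 measured, 6 rose and 4 fell, with a median of 0.46 (0.22 without bERKO PMSG replicate 3 and 0.16 without bERKO hCG replicate 1). In the IGF system Pappa, a protease that frees IGF from its binding proteins, went from 6.92, 7.55 and 5.35 to 11.6, 11.15 and 11.35, and the adaptor Irs1 fell by 2.18 (SE 0.33, adjusted p = 0.00126). There 4 of 17 genes rose and 1 fell (median 0.48, or 0.24 without bERKO PMSG replicate 1 and 0.85 without bERKO PMSG replicate 3).

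Proteases of tissue remodelling rose with their inhibitors. Adamts4, a versican-cutting protease, measured 5.77, 6.62 and 4.09 after PMSG and 10.45, 11.26 and 10.41 after hCG, a change of 5.21 (SE 0.74, adjusted p = 0.000875). Plau, urokinase, went from 11.44, 11.42 and 10.77 to 14.03, 14.06 and 14.31 and its receptor Plaur from 6.23, 5.04 and 6.63 to 7.86, 7.74 and 7.9. Adamts9 rose by 2.42 (SE 0.37, adjusted p = 0.00128). The metalloprotease inhibitor Timp1 rose by 3.93 (SE 0.72, adjusted p = 0.00348), whereas the protease Adamts5 fell by 1.84 (SE 0.43, adjusted p = 0.0113). Of 26 measured, 7 rose and 1 fell, with a median of 0.42 (0.64 without bERKO PMSG replicate 3 and 0.76 without bERKO hCG replicate 3). Of the 20 angiogenic and vasoactive genes, 5 rose and 3 fell (median 0.52; 3 and 1 without bERKO hCG replicate 1). Cxcr4, a chemokine receptor, went from 8.66, 10.59 and 10.48 to 14.18, 14.12 and 14.24, and the guidance factor Sema3a rose by 3.49 (SE 0.49, adjusted p = 0.000875). Among 26 cytokine and chemokine genes 5 rose and 1 fell (median 0.40), but 2 rose without bERKO PMSG replicate 2, bERKO hCG replicate 1 or bERKO hCG replicate 2. Il6, a driver of cumulus expansion, went from the floor (4.23, 4.13 and 4.09) to 5.4, 6.13 and 5.76.

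Genes of hypoxia and glycolysis went both ways, with 6 of 23 risen and 9 fallen (median -0.33, or -0.12 without bERKO PMSG replicate 2 and -0.55 without bERKO PMSG replicate 3). Egln3, a prolyl hydroxylase that marks HIF proteins for breakdown, went from 5.53, 4.61 and 4.35 to 11.06, 10.64 and 11.69, a change of 6.30 (SE 0.40) with the smallest adjusted p of the genes named here, 3.18e-05. Hk2, a hexokinase, rose by 2.08 (SE 0.35, adjusted p = 0.00196). Pdk1, which keeps pyruvate from mitochondria, fell from 10.44, 11.42 and 10.7 to 7.96, 8.02 and 5.42, and the glycolytic enzyme Tpi1 fell by 1.26 (SE 0.25, adjusted p = 0.00499). The falls in the list were 5 without bERKO PMSG replicate 1 or bERKO hCG replicate 1, 4 without bERKO PMSG replicate 2 and 3 without bERKO hCG replicate 3. The rises were 3 without bERKO PMSG replicate 3.

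The last 3 lists, like those above, are set against 7.05% risen and 11.9% fallen over all genes. Of 20 heat shock and chaperone genes 4 rose and 0 fell (median 0.34), among them Hsp90aa1, which went from 11.68, 12.14 and 12.17 to 13.96, 13.93 and 14.1, although its probe sets ran from -0.95 to 2.0. Of 16 BCL2 family genes 4 fell and 2 rose, and without bERKO PMSG replicate 1, bERKO hCG replicate 1 or bERKO hCG replicate 3 no member rose. The antiapoptotic Bcl2l1 fell from 8.5, 8.96 and 8.87 to 6.45, 6.24 and 6.63, and the proapoptotic Bok by 2.90 (SE 0.40, adjusted p = 0.000797). Of 17 clock genes 4 rose and 2 fell. Bhlhe40, a repressor of the clock, went from 7.1, 7.95 and 6.79 to 11.04, 11.16 and 11.63, while the rises numbered 2 without bERKO PMSG replicate 1, bERKO hCG replicate 2 or bERKO hCG replicate 3, and the falls 1 without either of those hCG arrays. These leave-out counts do not cover 1 of the 17 clock genes, which was matched by a synonym.

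The other genes among the 15 largest rises were of varied function. Chst15, a sulfotransferase of chondroitin chains, went from 6.69, 4.45 and 7.88 to 13.68, 13.75 and 13.61, and Enpp3, an ectonucleotidase, from 4.88, 5.34 and 4.46 to 12.01, 11.96 and 12.58. Procr, the protein C receptor, went from 6.14, 6.54 and 4.57 to 12.92, 12.72 and 13.12. The hCG values of each lay within 1 log2 unit of one another, while the PMSG values of Chst15 were spread over more than 3. The probe sets of Enpp3 ran from 0.16 to 7.29.

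The largest falls included genes known from germ cells. Tex14, a protein of germ cell bridges, fell from 11.64, 10.68 and 11.01 to 6.37, 5.04 and 5.37, a change of -5.52 (SE 0.56, adjusted p = 0.000195). Tdrd5, a Tudor protein of the germ line, fell from 10.45, 9.7 and 10.06 to 5.93, 6.15 and 5.26. Fbxw22 fell from 9.5, 8.97 and 11.17 to 5.51, 4.09 and 6.54, and its call was lost without bERKO PMSG replicate 3 (-3.84) or bERKO hCG replicate 2 (-3.86). The mean of the oocyte markers described below was also lower on each hCG array than on any PMSG array. Without bERKO PMSG replicate 3 the changes of Tex14 and Tdrd5 were -5.53 and -4.26. Oocyte RNA as a source of these signals was not tested.

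Other large falls were in genes of metabolism, membrane and signalling. Acacb, an acetyl-CoA carboxylase, fell from 9.66, 9.92 and 9.46 to 4.43, 5.61 and 6.26, and Kcnj3, a potassium channel, from 11.87, 11.85 and 12.13 to 7.85, 7.81 and 6.94. Fndc5, the precursor of irisin, fell by 4.41 (SE 0.31, adjusted p = 5.9e-05), and St8sia1, a sialyltransferase, by 4.42 (SE 0.46, adjusted p = 0.000235). Kctd14 (-4.84), Zg16 (-4.81), the serine protease Tmprss13 (-4.69), Lrrc10b (-4.57), Insyn2b (-4.52), Cables1 (-4.39), Kazald1 (-4.39) and the immunoproteasome subunit Psmb9 (-4.30) complete the set. The rule for the largest falls took only genes whose groups did not overlap, a trait of 36.2% of all genes. The calls of these 8 held without each of the 12 arrays in turn. The other probe set of Acacb had a change of 0.30.

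Markers of other ovarian cell types differed between the arrays and are given as mean levels over each list. In bulk samples, fewer cells of a type and less RNA of it per cell cannot be told apart. Oocyte markers (14 measured) were at 8.33, 8.29 and 9.76 after PMSG and at 6.63, 6.37 and 7.44 after hCG. Of these 7 fell, among them Padi6 and Nobox, but 0 fell without bERKO PMSG replicate 3 (median change -1.83 in place of -2.22) and 0 without bERKO hCG replicate 1. It fell to 3 without bERKO PMSG replicate 1, 2 without bERKO PMSG replicate 2, 1 without bERKO hCG replicate 2 and 11 without WT PMSG replicate 3. Padi6 had a change of -2.61 and Nobox one of -1.93 without bERKO PMSG replicate 3, and -2.38 and -2.44 without bERKO hCG replicate 1. Zp3, a zona pellucida protein that defines oocytes, measured 8.76, 9.2 and 10.64 after PMSG and 6.94, 7.17 and 8.15 after hCG and did not pass, except without WT PMSG replicate 3 (adjusted p = 0.0164) or with the 6 bERKO arrays fitted alone (adjusted p = 0.0466). Oocyte signal was thus present on every array and lower on each hCG array than on any PMSG array. Its part in the genes that fell was not tested.

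Endothelial markers were higher after hCG. Their mean (13 genes) was 5.68, 5.71 and 5.41 after PMSG and 7.31, 7.6 and 6.76 after hCG, and 5 rose with 0 falling (median 1.67). Emcn went from 4.24, 4.77 and 4.18 to 8.04, 8.6 and 7.45, Kdr from 4.94, 5.52 and 4.48 to 7.95, 8.82 and 8.29, and Pecam1 from 6.02, 4.38 and 4.47 to 7.04, 7.5 and 6.83. After PMSG, Emcn and Kdr were thus near the floor. On the WT hCG arrays the mean was 5.77, 5.53 and 5.44. Stromal and smooth muscle markers (16 genes) were at 6.51, 5.97 and 7.48 after PMSG and 8.02, 7.93 and 7.12 after hCG, so the groups overlapped. Of them 3 rose and 1 fell (median 1.08, or 0.57 without bERKO PMSG replicate 2), and 1 rose without WT PMSG replicate 2, bERKO PMSG replicate 2, WT hCG replicate 2 or 3, or bERKO hCG replicate 1 or 2. Col1a2, a collagen, went from 8.19, 6.74 and 8.31 to 12.24, 12.39 and 10.34. Its probe sets ran from -0.04 to 3.91.

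Leukocyte markers (17 genes) were at 5.35, 5.89 and 5.96 after PMSG and 6.39, 6.24 and 5.61 after hCG, overlapping, with 2 risen and 1 fallen. The shares over all genes were 7.05% risen and 11.9% fallen. No leukocyte gene rose without bERKO PMSG replicate 1 or bERKO hCG replicate 1, and 1 rose without WT PMSG replicate 2 or bERKO hCG replicate 2. Ptprc, the leukocyte antigen CD45, lay between 4.77 and 6.33 on the 6 arrays. Theca and interstitial markers (8 genes) were at 8.29, 8.01 and 7.99 against 8.58, 8.5 and 8.22, with 2 risen and 2 fallen, or 1 fallen without bERKO hCG replicate 3. None of the 3 erythrocyte or 8 surface epithelium genes passed. Luteal markers (6 genes) were at 8.19, 8.1 and 7.69 against 11.28, 11.36 and 10.81, and 4 rose, of which Sfrp4, Ptgfr and Cdkn1a are described above. The part of other cells in the rises reported here was not tested.

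**Figure D4:**
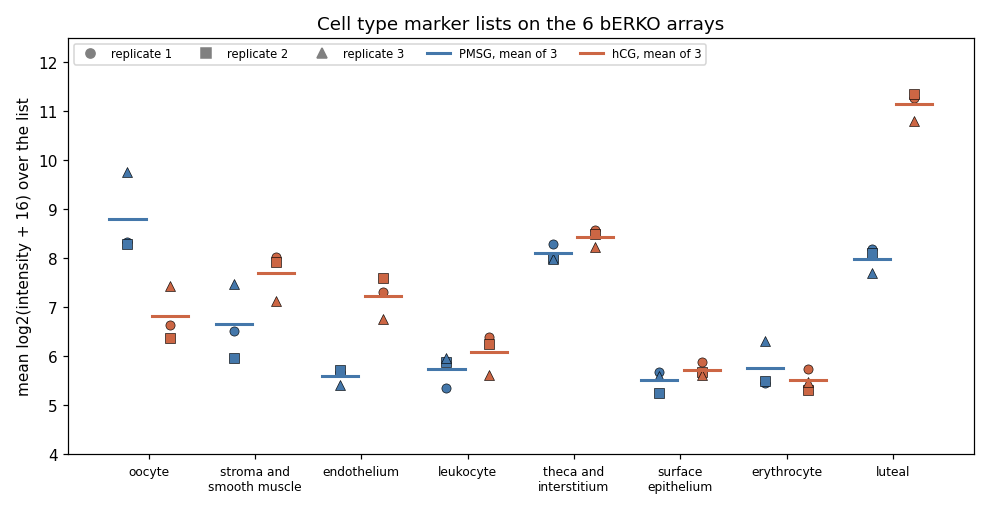
Mean level of 8 cell type marker lists on each of the 6 bERKO arrays (points, log2(intensity + 16)) and the mean of 3 arrays (bars), after PMSG in blue and after hCG in orange. Oocyte markers lie between 8.29 and 9.76 after PMSG and between 6.37 and 7.44 after hCG; endothelial and luteal markers lie higher on every hCG array than on any PMSG array.

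The bERKO response was then set against that of WT cells. The WT response had 378 calls (133 risen, 245 fallen), a number that rested on single WT arrays. Leaving out one WT PMSG array gave 60, 76 or 68 calls (replicates 1, 2 and 3). It was 53 and 229 when WT hCG replicate 2 or 3 was dropped, and 201 and 231 when bERKO hCG replicate 2 or 1 was. Without WT hCG replicate 1 it was 475 and without bERKO PMSG replicate 3 it was 556. Of the 3447 bERKO calls 7.34% were also called in WT, and of the WT calls 66.9% were called in bERKO (10.1% and 82.1% without WT hCG replicate 1). A call in one genotype and not in the other does not show a difference, so the difference between the responses was tested for each gene in the same fit: 239 of 18193 genes passed (1.31%), 123 with the higher change in bERKO and 116 with the lower. Of the 239, 224 were called in bERKO, 70 of them with the same sign in WT and a larger size in bERKO and 154 with opposite signs. These signs were counted whether or not the WT change passed. Of the 253 genes called in both genotypes, 245 had the same sign. The number of differences that passed was 115 without WT hCG replicate 1, the array of high Gapdh ratio, and 138 without bERKO PMSG replicate 3, of which 106 and 114 were among the 239. It lay between 81 and 138 without any 1 of 9 arrays, at 176 without bERKO hCG replicate 3, at 209 without bERKO PMSG replicate 2 and at 423 without WT hCG replicate 3. With 224 of the 239 called in bERKO, the list of differences is mostly one of bERKO calls.

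For the main ovulatory genes the difference did not pass. Ptgs2 had a change of 9.40 in bERKO and 6.75 in WT (difference 2.65, adjusted p = 0.441), Pgr 8.5 and 4.03 (difference 4.47, adjusted p = 0.381) and Ereg 9.33 and 6.78 (difference 2.55, adjusted p = 0.42). Star had 6.51 and 4.03 (difference 2.48, adjusted p = 0.35) and Sult1e1 10.02 and 6.5 (difference 3.53, adjusted p = 0.461). The standard errors of these differences were between 1.18 and 2.27, so differences of several log2 units could be missed. The size of each depended on WT hCG replicate 1, the WT array of high Gapdh ratio, where Pgr measured 5.21 against 13.1 and 13.38 on the other WT hCG arrays and Ptgs2 8.18 against 12.23 and 13.62. Without it the differences were 1.05 for Ptgs2, 1.79 for Pgr, 1.0 for Ereg, 1.20 for Star and 1.04 for Sult1e1, and again none passed (adjusted p from 0.162 to 0.66).

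Some of the differences that passed were of genes with a large change in bERKO and a small one in WT. Hpgd fell in bERKO while it measured 11.18, 12 and 11.82 after PMSG and 12.36, 11.37 and 11.06 after hCG in WT (difference -3.76, SE 0.52, adjusted p = 0.00819). Foxo1 fell in bERKO and stayed between 13.91 and 14.47 on the 6 WT arrays (difference -2.66, SE 0.41, adjusted p = 0.0135). For Ptgfr, WT arrays measured 8.12, 5.91 and 8.65 after PMSG and 5.04, 7.33 and 7.69 after hCG, overlapping, where bERKO rose (difference 7.06, SE 1.12, adjusted p = 0.0136). These 3 differences held without each of the 12 arrays in turn, though Foxo1 missed the threshold with both arrays of high Gapdh ratio left out (-2.57, adjusted p = 0.053) and Ptgfr with an offset of 1 (8.74, adjusted p = 0.0722). The difference for Esr1 was -2.55 (SE 0.45, adjusted p = 0.0236). It was lost without any WT PMSG array, WT hCG replicate 1 or 2, bERKO PMSG replicate 1 or bERKO hCG replicate 2, at values from -2.64 to -2.36 and adjusted p from 0.0506 to 0.0627. Sfrp4 had a difference of 9.05 (SE 1.74, adjusted p = 0.0339), which passed without WT hCG replicate 1 or 3 but was lost without any other array (8.34 to 9.59, adjusted p from 0.0505 to 0.0817).

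Some genes had higher values after hCG in bERKO and lower ones after hCG in WT. Cadm3, an adhesion molecule, went from 4.05, 4.15 and 4.05 to 7.27, 7.94 and 8.03 in bERKO and from 9.15, 7.5 and 8.44 to 4.1, 4.86 and 5.74 in WT (difference 7.12, SE 0.66, adjusted p = 0.00364). Comp, a cartilage matrix protein, went from 7.19, 6.94 and 5.73 to 10.36, 9.92 and 10.76 in bERKO and from 12.27, 11.69 and 11.7 to 5.38, 5.8 and 10.07 in WT (difference 8.53, SE 1.35, adjusted p = 0.0136). The bERKO change of Comp, 3.73, missed the threshold without bERKO PMSG replicate 3 (3.24) or bERKO hCG replicate 1 (3.72) or 3 (3.53). Lrrtm3, a synaptic adhesion protein, had changes of 3.97 and -2.37 (difference 6.35, SE 0.78, adjusted p = 0.00819). Mpzl2, another adhesion protein, rose by 6.0 in bERKO against -1.07 in WT (difference 7.06, SE 0.74, adjusted p = 0.00671), and its WT hCG values lay at the floor. For Cadm3, Comp and Lrrtm3 the PMSG levels were lower in bERKO than in WT, so the responses of the genotypes start from different levels. In the other direction Limch1, an actin-binding protein, fell from 10.38, 8.76 and 10.45 to 5.68, 5.85 and 5.71 in bERKO and measured 7, 9.1 and 8.22 against 10.47, 9.97 and 8.45 in WT (difference -5.63, SE 0.89, adjusted p = 0.0136). The bERKO changes of its probe sets ran from -4.23 to -0.44.

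**Figure D5:**
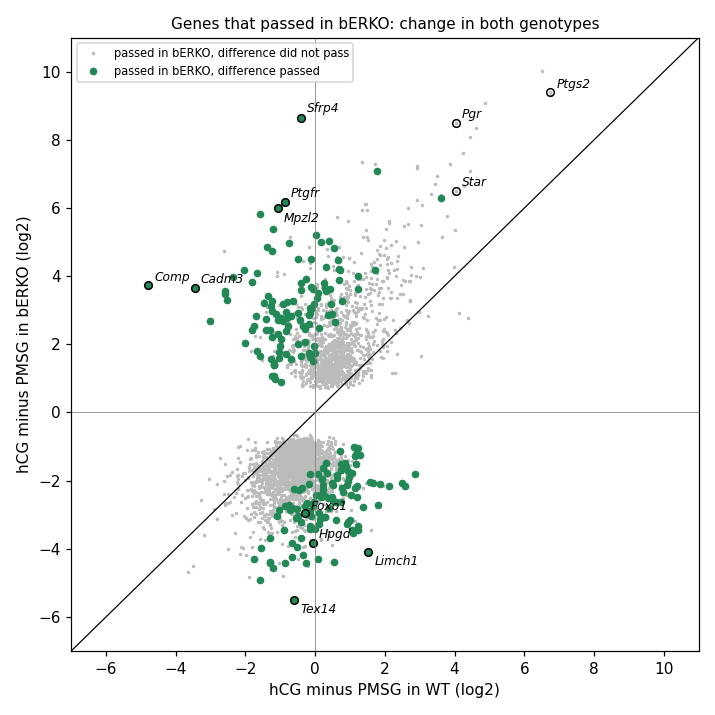
Change from PMSG to hCG (log2) in WT (x axis) and in bERKO (y axis) for the 3447 genes called in bERKO; green points are the 224 whose difference between genotypes also passed, and the line marks equal changes. Ptgs2, Pgr and Star lie above the line without a difference that passed (2.65, 4.47 and 2.48, or 1.05, 1.79 and 1.20 without WT hCG replicate 1), and Cadm3 and Comp lie among the genes with a rise in bERKO and a lower value after hCG in WT.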

How the data were processed

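Laser-captured granulosa cells from 4 groups of 3 arrays were measured on one-colour Affymetrix arrays from 25 ng of total RNA, amplified and biotin labelled with NuGEN kits per the labels' protocols. The deposited values are linear intensities that the authors had scaled so that the 2% trimmed mean of each array is 500; the sources used here do not name the signal software. Of 45101 probe sets, 64 controls were removed, and 34945 name 1 gene in the platform annotation, 932 name several and 9160 are unlisted and were left unnamed. RefSeq matched 34741 of the 34945, with no symbol changed. Intensities were quantile normalized and taken as log2(intensity + 16). For each gene the probe set of highest mean was kept (18193 genes). Several probe sets were available for 9010 of them, and these can disagree also where the text gives no range.

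A mean per group was fitted over all 12 arrays with limma 3.58.1 (R 4.3.3, statmod 1.5.0) and two-sided p-values were adjusted over all genes by Benjamini-Hochberg. The code was tested on simulated data. Figures were drawn with matplotlib 3.10.9 under Python 3.11.15. Genes named in the text come from the 15 largest rises and 15 largest falls without overlap (clone names skipped), from up to 6 members of each of 33 lists by smallest p, a set of key ovulatory genes, and the 8 largest differences from WT of each sign. Crem, Egr2, Egr4, Id1, Tgfb2, Bmp2, Bmp6, Ptges, Fosb, Fosl1, Fos, Egfr, Gata4, Gata6, Foxl2, Hsd17b1, Hsd11b2, Hsd3b1, Inha, Inhba, Fst, Nr5a2, Amh, Ptprc and Zp3 lie outside that rule, chosen once their values had been seen. The members and the lists (598 symbols, 561 measured) were chosen with earlier results of these data known. Alternatives covered the normalization, the offset, a filter on dim genes, the choice of probe set, array weights, eBayes settings, a replicate block, the arrays in the fit and each array left out. Leaving out both arrays of high Gapdh ratio was added after seeing the data. Adjusted p-values in the text are from limma.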

Additional observations from a re-analysis of the deposited data

Results flagged for a closer look

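Of 176 genes named here, 42 had responses to hCG that differed between bERKO and WT by the limma test of the difference itself (adjusted p under 0.05 over all 18193 genes), 18 with the higher change in bERKO and 24 with the lower. Over all genes 239 passed (1.31%). The share among named genes cannot be read against this. Some were named because their difference passed, and others for a large bERKO change, which is part of the difference. Values are the bERKO change minus the WT change, in log2 units. Of the 42, 22 passed without each of the 12 arrays in turn, and 9 of these also passed under every other setting tried: Cadm3, Emcn, Fndc5, Hpgd, Lrrc10b, Lrrtm3, Mpzl2, Slco2a1 and Wnt10b. The number still passing with 1 array left out ran from 23 (bERKO hCG replicate 2) to 42 (WT hCG replicate 3), and it was 28 without WT hCG replicate 1, 26 without bERKO PMSG replicate 3 and 16 without both.

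The higher changes included those of genes of matrix, adhesion and Wnt signalling: Sfrp4 (9.05), Comp (8.53), Cemip (7.43), Cadm3 (7.12), Mpzl2 (7.06), Lrrtm3 (6.35), Adamts4 (5.18) and Wnt10b (3.91). Of these, the differences of Sfrp4, Cemip and Adamts4 were each lost without 9 or more of the 12 arrays. Prostaglandin genes were the receptor Ptgfr (7.06) and the transporter Slco2a1 (3.19). Lipid and steroid enzymes were Lipg, endothelial lipase (6.60), and Hsd17b7, an enzyme of cholesterol and estradiol synthesis (3.86). The endothelial markers Cdh5 (4.03) and Emcn (3.70) differed as well, beside mean endothelial marker levels of 7.31, 7.6 and 6.76 on the bERKO hCG arrays and 5.77, 5.53 and 5.44 on the WT hCG arrays. The part of endothelial cells in these differences was not tested. The remaining higher changes were those of the small heat shock protein Cryab (3.78), the phosphodiesterase Pde4b (2.77), the stress gene Ndrg1 (2.73) and the prolyl hydroxylase Egln3 (2.68). These 4 were lost without 9 or more of the 12 arrays. In the bERKO response the probe sets of Cryab ran from -0.21 to 2.7 and those of Ndrg1 from -0.03 to 3.19. Egln3 rose in both genotypes, by 6.30 and 3.61. The differences of Lipg and Cdh5 were lost without 6 and 4 of the 12 arrays.

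The lower changes began with Limch1 (-5.63), Kazald1 (-4.93) and the germ cell genes Tex14 (-4.92) and Tdrd5 (-4.36). Genes of membranes and junctions followed, with the tight junction protein Cldn11 (-4.77), Cnnm1 (-4.63), the ankyrin Ank3 (-4.55) and the potassium channel Kcnj3 (-3.13). A matrix gene, the collagen Col11a1, had a difference of -4.67. Col11a1 had changes of opposite sign that both passed, -1.80 in bERKO and 2.87 in WT, of which the first was lost without bERKO PMSG replicate 1 (-1.50), 2 (-1.98) or 3 (-1.91) or bERKO hCG replicate 2 (-1.44) or 3 (-1.75). Enzymes of lipids were the phospholipase Pla2g1b (-4.69), the sialyltransferase St8sia1 (-4.16), Ptgis (-4.16), Hpgd (-3.76) and Acacb (-3.58). Regulators of hormone response and survival were Bcl2l1 (-3.16), Foxo1 (-2.66), Esr1 (-2.55) and Inhbb (-2.44). The rest were Fndc5 (-3.55), Lrrc10b (-3.37), Cables1 (-3.09), Gucy1a1 (-2.69), Psmb9 (-2.53) and Ece1, the endothelin converting enzyme (-1.65). Of these lower changes, those of Cldn11, Kcnj3, Pla2g1b, Psmb9, Cables1 and Ece1 were lost without 8 or more of the 12 arrays, that of Esr1 without 7, those of Cnnm1 and Gucy1a1 without 6 and those of Col11a1 and Inhbb without 2. The bERKO changes of the probe sets of Ece1 ran from -1.81 to 0.33.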

How the results depend on the processing

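The counts of the bERKO response (1283 risen, 2164 fallen) stayed within 1.5 times under 11 of 12 settings other than single arrays left out. The exception tested every one-gene probe set, 34945 in place of 18193 features, with 2801 risen and 5864 called. With 1 array left out, fallen genes ranged from 1369 to 2432. The count of differences from WT moved more. Of 239 (123 higher, 116 lower), 95 passed with an offset of 1 (46 and 49), 454 with one of 64 (231 and 223), 420 with array weights (224 and 196) and 542 with a trended robust eBayes (264 and 278). Among the 9096 genes of higher mean 376 passed, with 233 lower. With both arrays of high Gapdh ratio left out, an alternative chosen after seeing the data, 103 passed (60 and 43). Leaving out 1 array gave 81 to 423 (36 to 222 higher, 43 to 201 lower). The labels do not say whether arrays that share a replicate number share anything else. Their deviations from the group means correlated at -0.08 to 0.12, and those of arrays with different numbers at -0.12 to 0.07. With the replicate number as a block, 1162 genes rose and 1988 fell, and 129 differences passed (69 and 60). The cause of these moves was not tested. Of 176 named genes, 141 kept their direction and call in all settings; over 4193 values 121 lost and 3 gained a call and 27 changed sign. The sign changes were in genes that did not pass. Cyp17a1 was at 0.09 and Hsd3b1 at -0.14 with the authors' scaling. With each array centred on its median Esr2 was at -0.24, Fst at -0.13, Hsd3b1 at -0.50, Inha at -0.24, Inhba at -0.34 and Egr4 at -0.11. Esr2 was at -0.09 with array weights, and with both arrays out Esr2 was at -0.08, Hsd3b1 at -0.07 and Ptprc at -0.07. Single arrays left out gave ranges of -0.57 to 0.24 for Cyp17a1, -0.08 to 0.18 for Esr2, -0.68 to 0.06 for Npr2, -0.40 to 0.67 for Amh, -0.08 to 0.21 for Hsd3b1, -0.03 to 0.26 for Egr4 and -0.18 to 0.60 for Ptprc. For levels near the floor of 4 the size of a change depends on the offset.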
